A study of Mus musculus with 10 samples.

Results

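Epithelial keratin, junction and apical membrane genes were followed across the walls of the mouse heart. The set held 10 genes, Krt7, Krt8, Krt18, Cldn1, Cldn3, Cldn15, Cdh1, Epcam, Lrp2 and Cybrd1, out of 22911 genes that the array probes could be assigned to. The genes were chosen by symbol and selected on their levels in the 3 regions, known from earlier results of these same arrays, so their differences between regions are given as a description and carry no test. All 10 had at least 1 probe. A probe was tested only if all arrays of some region showed it well above background, and 7 of the 10 genes had such a probe.

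Hearts of C57BL/6N mice with no stated treatment were perfused with cold saline through both ventricles, separated into pieces and frozen. The pieces were the right ventricle (RV, 4 arrays), the left ventricle (LV, 3 arrays) and the ventricular septum between them (Septum, 3 arrays). Cy3-labelled RNA from every piece went onto its own Agilent mouse array, read in 1 colour. Age and sex of the mice, and whether arrays of different regions shared a heart, are not given in the sources used here, so the spread between arrays may be partly technical. A level below is the log2 signal of the brightest probe of a gene minus the 75th percentile of its array, so that 0 is the 75th percentile and each unit is a doubling. The 10 arrays lay on 2 slides. RV3, RV4, LV3 and Septum3 were on slide 2, and the arrays numbered 1 and 2 were on slide 1. The share of spots well above background was 53.7% to 64.0% per array, with no saturated spot. Heart muscle was present in every piece, since 8 of 8 cardiomyocyte genes were well above background on all 10 arrays. These genes do not tell the 3 regions apart. The summed linear level of 5 atrial genes, where 1 is the 75th percentile of the array, was 581 on Septum1. On the other arrays it ran from 24.1 to 166. The part of atrial tissue in the differences was not tested.

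Simple epithelia are sheets of cells that line surfaces and ducts. Their cytoskeleton is built of paired keratins, a type II keratin such as Krt7 or Krt8 with a type I keratin such as Krt18 or Krt19. Their cells are sealed by claudins in tight junctions and joined by E-cadherin (Cdh1), and their free, apical surface carries receptors and enzymes of its own. The heart wall is mostly muscle, vessels and fibroblasts, and its outer surface is covered by the mesothelium of the epicardium, a simple epithelium that has keratins.

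Krt8 and Krt18, the partners of the commonest keratin pair of simple epithelia, are direct neighbours on chromosome 15 in the RefSeq order of genes, and Krt7 lies on the same chromosome next to Krt80. Upstream sequence is shown for these 3 genes because they are the keratins of the set. Each sequence is the 250 bases before the RefSeq start of the gene (build GRCm38.p6), read 5′ to 3′ on the strand of the gene. The windows are chr15:101412153-101412402 on the plus strand for Krt7, chr15:102004343-102004592 on the minus strand for Krt8 and chr15:102027966-102028215 on the plus strand for Krt18. Capitals mark CACCTG, the letters of an E-box that Snail, Slug and Zeb repressors of epithelial genes are known to bind.
Krt7: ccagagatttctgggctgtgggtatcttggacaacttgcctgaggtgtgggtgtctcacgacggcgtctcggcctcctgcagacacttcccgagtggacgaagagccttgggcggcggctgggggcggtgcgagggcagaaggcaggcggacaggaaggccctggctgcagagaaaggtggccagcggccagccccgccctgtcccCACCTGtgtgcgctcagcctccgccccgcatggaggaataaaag
Krt8: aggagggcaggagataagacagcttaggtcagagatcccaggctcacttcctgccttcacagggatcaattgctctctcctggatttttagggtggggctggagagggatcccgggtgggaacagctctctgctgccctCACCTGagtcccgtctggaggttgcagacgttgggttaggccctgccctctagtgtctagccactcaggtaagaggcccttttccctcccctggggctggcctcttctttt
Krt18: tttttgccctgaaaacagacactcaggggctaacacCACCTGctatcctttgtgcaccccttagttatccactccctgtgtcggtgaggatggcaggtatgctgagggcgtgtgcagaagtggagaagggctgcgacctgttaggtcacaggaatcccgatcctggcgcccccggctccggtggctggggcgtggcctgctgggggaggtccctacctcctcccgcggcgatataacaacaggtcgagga
The match began 44 bases before the start in Krt7, 111 bases before it in Krt8 and 214 bases before it in Krt18. Among the 9 genes of the set with an upstream sequence, 5 held CACCTG or its reverse complement CAGGTG (Krt7, Krt8, Krt18, Epcam and Cybrd1), against 17.2% of all 32851 upstream windows of this length. AACCGGTT, the letters of a grainyhead site, was in 0 of the 9 and in 0.116% of all windows. TATAAA or its reverse complement was in 0 of the 9 and in 12.4% of all windows. A match describes letters only, and these windows were not measured on the arrays.

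All 7 tested genes had a higher mean in the RV than in the LV and in the Septum. The RV minus LV differences ran from 1.13 (Cldn15) to 3.24 (Cldn3) on the log2 scale with a median of 1.88, where the median over all genes tested was -0.05. The RV minus Septum differences ran from 1.75 (Cldn15) to 3.52 (Cybrd1) with a median of 2.95, against -0.04 over all genes tested. Only Krt18 and Cldn15 were well above background on all 10 arrays. Krt7, Cldn3, Lrp2 and Cybrd1 passed the filter through the RV arrays alone, so they had to lie higher there, and no count over the 7 genes is support for a difference. With normexp background correction, the RV minus LV differences of these 4 genes fell to between 0.93 and 1.197 and their RV minus Septum differences to between 1.05 and 1.54. In pieces of tissue, fewer cells of a type and less RNA per cell cannot be told apart.

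**Figure D1:**
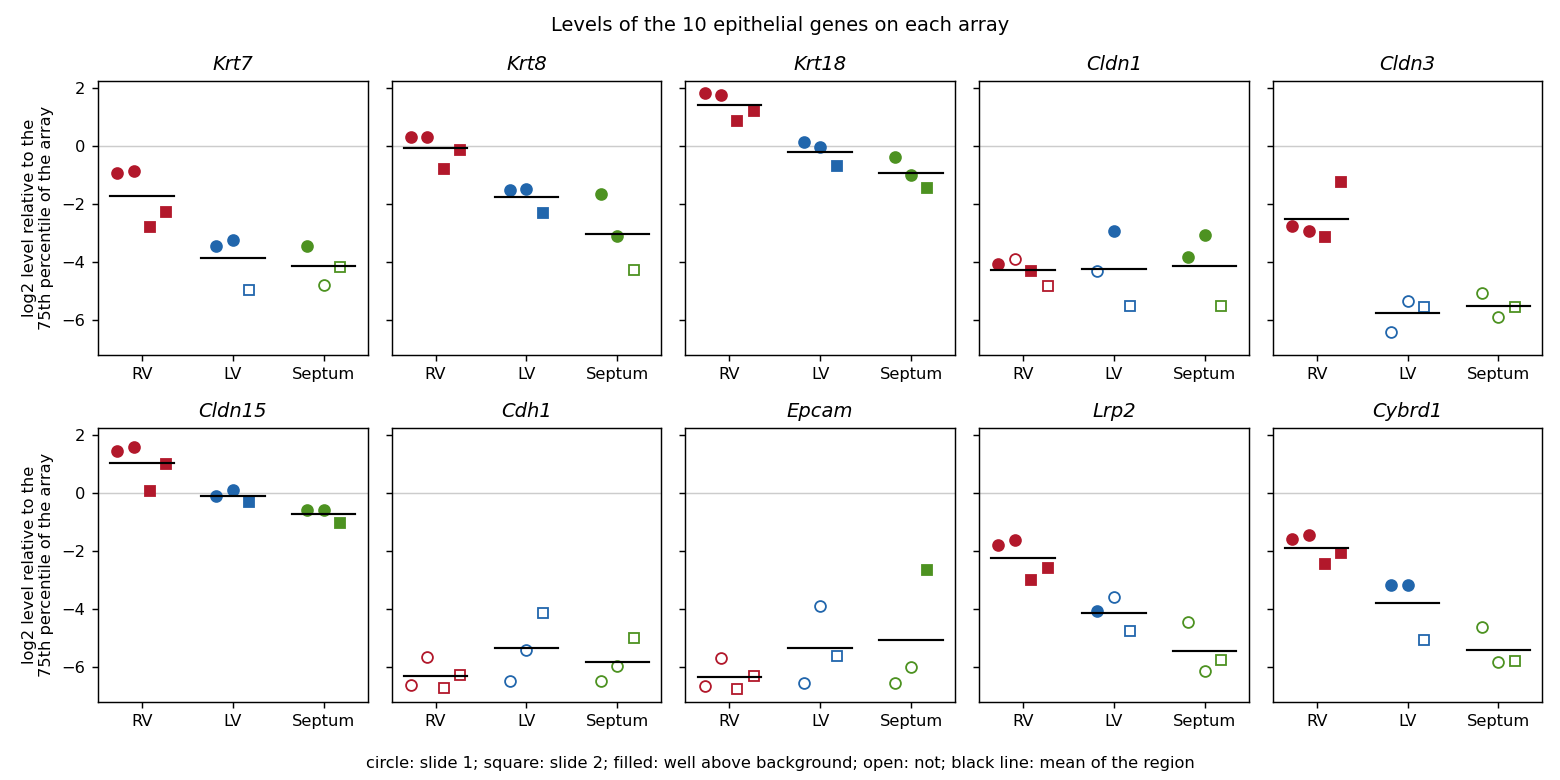
Level of each of the 10 genes on each array (vertical axis, log2 relative to the 75th percentile of the array) by region (horizontal axis), with circles for slide 1, squares for slide 2, filled symbols where the probe was well above background and a black line at the mean of the region. In 6 of the 7 tested genes every RV array lies above every LV and Septum array, Cldn15 overlaps at RV3, and Cldn1, Cdh1 and Epcam show no such order.

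Krt18, a type I keratin, was the brightest keratin probe of the set and was measured on every array. Its level was 1.81, 1.77, 0.88 and 1.19 on RV1 to RV4, 0.14, -0.05 and -0.70 on LV1 to LV3, and -0.38, -0.99 and -1.45 on Septum1 to Septum3. The regions were separate except that LV and Septum overlapped. The RV mean was 1.41 ± 0.45 (SD, n = 4), the LV mean -0.20 ± 0.44 (SD, n = 3) and the Septum mean -0.94 ± 0.53 (SD, n = 3). On the log2 scale RV was 1.62 (SE 0.32) above LV, which is 3.07-fold, and 2.35 (SE 0.32) above Septum, which is 5.10-fold.

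Krt8, its type II partner, showed the same order with a wider spread in the Septum. Its level was 0.33, 0.31, -0.80 and -0.13 on RV1 to RV4, -1.51, -1.48 and -2.31 on LV1 to LV3, and -1.67, -3.12 and -4.27 on Septum1 to Septum3. The probe was not well above background on Septum3, and Septum1 lay between the LV arrays. The RV mean was -0.07 ± 0.53 (SD, n = 4), the LV mean -1.77 ± 0.47 (SD, n = 3) and the Septum mean -3.02 ± 1.30 (SD, n = 3). RV was 1.70 (SE 0.54) above LV and 2.95 (SE 0.54) above Septum.

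Krt7, a type II keratin of ducts and mesothelia, differed by slide within the RV and the LV, while the Septum arrays did not follow the slide and overlapped with LV. Its level was -0.92, -0.87, -2.79 and -2.26 on RV1 to RV4, -3.44, -3.23 and -4.95 on LV1 to LV3, and -3.46, -4.80 and -4.17 on Septum1 to Septum3. RV3 and RV4, both on slide 2, lay closer to LV2 than to the RV arrays of slide 1. The probe was well above background on 4 of 4 RV, 2 of 3 LV and 1 of 3 Septum arrays. RV was 2.16 (SE 0.58) above LV and 2.43 (SE 0.58) above Septum. Krt80, its neighbour on the chromosome, was well above background on all 10 arrays between -2.01 and -0.91, with an RV minus LV difference of 0.14 and an RV minus Septum difference of -0.02.

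Among the tight junction genes, Cldn3, a claudin that tightens the seal between epithelial cells, was seen on the RV arrays alone. Its level was -2.77, -2.93, -3.13 and -1.26 on RV1 to RV4. It was not well above background on any LV array (-6.40, -5.35 and -5.54) or Septum array (-5.07, -5.90 and -5.54). In these signals the RV mean was at least 2.36-fold higher than LV and at least 2.71-fold higher than Septum. For this, the dim side is set to the lowest signal that was well above background on each array. This and every later value given as at least a fold leaves out the spread between arrays. Such values hold for this background correction alone. With normexp correction the differences of Cldn3 were 1.19 and 1.05 on the log2 scale. The measured means differed by 3.24 (SE 0.45) and 2.98 (SE 0.45), values that rest on spots not above background. Cldn4, its neighbour on chromosome 5, was not well above background on any of the 10 arrays.

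Cldn15, a claudin that forms sodium channels in the gut lining, was measured on every array. Its level was 1.44, 1.57, 0.08 and 0.996 on RV1 to RV4, -0.09, 0.09 and -0.32 on LV1 to LV3, and -0.57, -0.59 and -1.03 on Septum1 to Septum3. RV3 lay just below LV2, the sole overlap of RV with LV among the 7 tested genes. Every Septum array lay below every LV array, which was so for no other tested gene of the set. The share of all probes with this order was not counted, so nothing is read from it. The means were 1.02 ± 0.68 (SD, n = 4), -0.10 ± 0.21 (SD, n = 3) and -0.73 ± 0.26 (SD, n = 3) in RV, LV and Septum. RV was 1.13 (SE 0.32) above LV and 1.75 (SE 0.32) above Septum.

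Cldn1, a claudin of the skin barrier, was near the limit of detection and was not tested. It was well above background on 2 of 4 RV, 1 of 3 LV and 2 of 3 Septum arrays, with means of -4.28 ± 0.41 (SD, n = 4), -4.25 ± 1.30 (SD, n = 3) and -4.14 ± 1.25 (SD, n = 3). Cdh1, E-cadherin, was well above background on none of the 10 arrays, at -6.72 to -4.14. Epcam, an adhesion protein of the surface of most epithelial cells, was well above background on Septum3 alone, at -2.67. These 3 genes therefore give no comparison between the regions. Cdh3, P-cadherin, lies beside Cdh1 on chromosome 8 and is described with the related genes.

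The apical genes were at the limit of detection in the Septum. Lrp2, megalin, takes up proteins from the lumen across the apical membrane. Its level was -1.79, -1.62, -2.99 and -2.59 on RV1 to RV4, -4.06, -3.58 and -4.75 on LV1 to LV3, and -4.44, -6.15 and -5.75 on Septum1 to Septum3. It was well above background on 4 of 4 RV arrays, 1 LV array and no Septum array, and every RV array lay above every other array. RV was 1.88 (SE 0.47) above LV and at least 3.28-fold higher than Septum. A second probe of the gene, well above background on the RV arrays alone, was at least 3.05-fold higher in RV than in LV and at least 3.69-fold higher than in Septum. The remaining probe went another way, being well above background on Septum1 and Septum2 alone (-4.15 and -3.68), and was not tested.

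Cybrd1, a ferric reductase of the apical membrane that prepares dietary iron for uptake, was seen on RV and LV arrays alone. Its level was -1.58, -1.44, -2.45 and -2.08 on RV1 to RV4, -3.17, -3.17 and -5.06 on LV1 to LV3, and -4.63, -5.81 and -5.78 on Septum1 to Septum3. The probe was well above background on 4 of 4 RV arrays, 2 of 3 LV arrays and no Septum array. The regions RV and LV were separate, and LV3 lay among the Septum arrays. RV was 1.92 (SE 0.50) above LV and at least 4.22-fold higher than Septum. A second, dimmer probe of the gene went another way and was not tested. It was well above background on 1 RV array, 2 LV arrays and no Septum array. Its LV mean (-3.90) lay above its RV mean (-4.48).

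With limma and Benjamini-Hochberg adjustment over all 30234 tested probes, 2 of the 10 genes were called between RV and LV (Krt18 and Cldn3), against 3.86% of all probes, 2.31% being higher in RV and 1.55% lower. Between RV and Septum 6 were called, all of the 7 but Krt7, against 2.08% of all probes, 1.2% being higher in RV and 0.873% lower. Because the genes were listed with these contrasts known, nothing is read from either count. The RV minus LV count is 7 in the fit blocked by replicate number, where 14.9% of all probes are called, and 7 in that blocked by slide, where 17.6% are. Under the blocks Krt7 is also called against Septum, with an adjusted p of 0.030 by replicate number (7.12% of all probes) and 0.007 by slide (8.74%). Krt7 passed the filter through the RV arrays alone and was listed with this contrast known, so nothing is read from these p-values. Between RV and LV Krt18 is lost without any of RV1, RV2, RV4, LV1, LV2 or LV3, leaving 1. The RV minus Septum count is 0 without Septum2, where 118 probes of the whole array are called, and 1 (Krt18) without Septum3. Krt8 and Cldn15 are also lost without RV1, RV2, RV4 or LV1, Krt8 without LV2 and Cldn15 without Septum1. Every RV array lay above every LV array for 6 of the 7 tested genes (8.1% of all probes), above every Septum array for 7 (5.86%), and above both for 6 (4.11%).

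LV and Septum were closer to each other. The Septum mean was below the LV mean for 6 of the 7 tested genes, with differences from -1.61 (Cybrd1) to 0.26 (Cldn3) and a median of -0.74, against -0.02 over all genes tested. No gene of the set was called by limma, and 0.0% of all probes were called. At an unadjusted p below 0.05 limma gave 2 genes of the set, Lrp2 and Cybrd1, and 862 of all 30234 probes. Neither gene was well above background on any Septum array. The variance analysis with Tukey's HSD that the study used gave 0 genes of the set and 1.44% of all probes. Except for Cldn15 the arrays of LV and Septum overlapped, and in 0 of the 7 genes every Septum array lay above every LV array (3.54% of all probes).

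**Figure D2:**
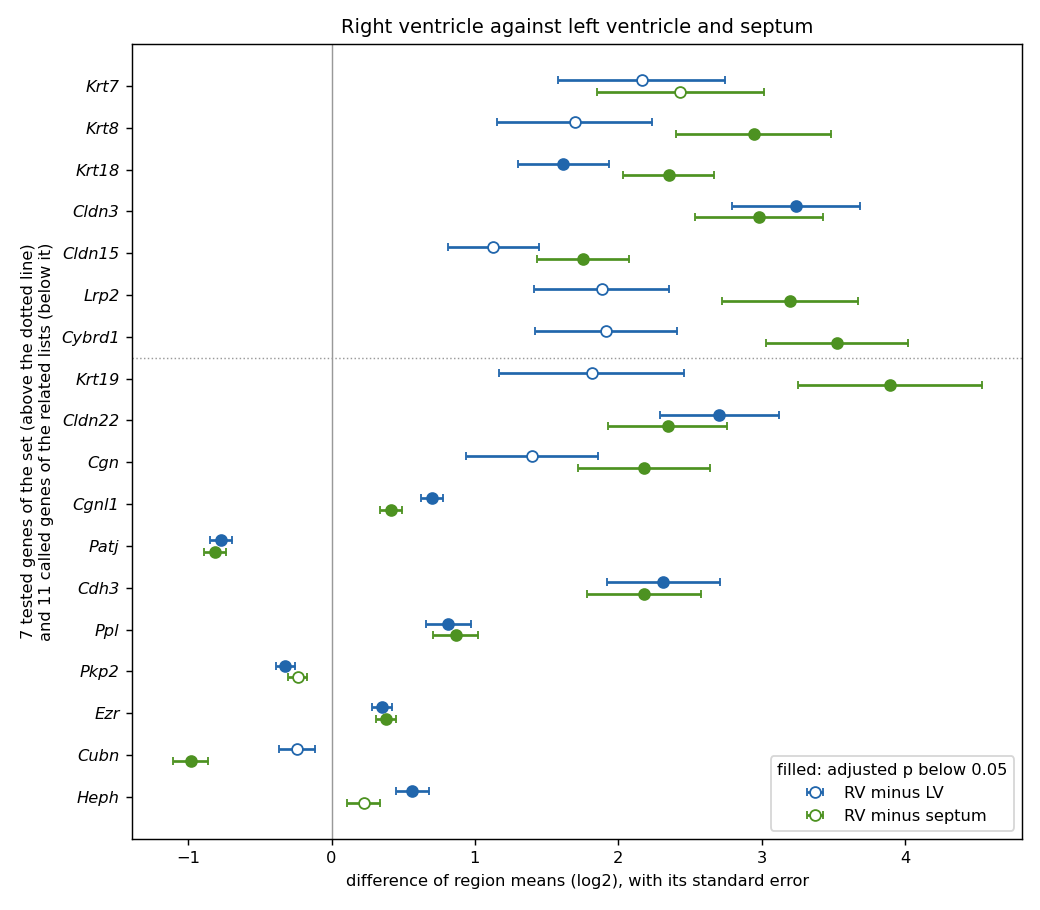
Differences of region means (horizontal axis, log2) with their standard errors for the 7 tested genes of the set, above the dotted line, and 11 called genes of the related lists, below it, with RV minus LV in blue, RV minus Septum in green and filled symbols where the adjusted p was below 0.05. All 14 differences of the set lie above 0, between 1.13 and 3.52, while Patj, Pkp2 and Cubn lie below 0.

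Slide and level went together within the RV and the LV. Within the RV, both slide 1 arrays lay above both slide 2 arrays for 6 of the 7 tested genes, and Cldn3, highest on RV4, was the exception. Within the LV this was so for 6 genes. Within the Septum it was so for 3 of the 7, near the share of all genes. The median slide 1 minus slide 2 difference over the 7 genes was 0.79 in the RV, 0.82 in the LV and 0.45 in the Septum. Over all 14617 named genes tested, slide 1 arrays lay above slide 2 arrays in 33.9%, 41.2% and 42.2% of genes in the same regions, with medians between -0.01 and 0.01.

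The RV minus LV and RV minus Septum differences of the 7 genes kept their sign on each slide. Septum minus LV did not for Krt7, at -0.79 on slide 1 and 0.78 on slide 2. On slide 1 (2 arrays a region) RV minus LV ran from 1.51 for Cldn15 to 3.02 for Cldn3. On slide 2 (2 RV arrays, 1 LV array and 1 Septum array) it ran from 0.86 for Cldn15 to 3.34 for Cldn3. RV minus Septum ran from 2.09 for Cldn15 to 3.71 for Cybrd1 on slide 1 and from 1.57 for Cldn15 to 3.80 for Krt8 on slide 2. With slide as a block in the model the RV minus LV differences were 1.23 for Cldn15, 1.74 for Krt18, 1.88 for Krt8, 2.03 for Lrp2, 2.09 for Cybrd1, 2.36 for Krt7 and 3.18 for Cldn3.

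Taken gene by gene about its own mean, the 7 genes followed a common profile. The mean centred level was 1.77, 1.81, 0.66 and 1.39 on RV1 to RV4, -0.38, -0.13 and -1.11 on LV1 to LV3, and -0.62, -1.64 and -1.73 on Septum1 to Septum3. RV3 was the lowest RV array and Septum1 the highest Septum array. The gene farthest from the profile was Cldn3 (mean absolute distance 0.610 per array) and the closest was Krt18 (0.201).

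Among the 14617 named genes compared over the 10 arrays, the 5 genes outside the set with the smallest distance from this profile were Prss12 (0.197), Gjb5 (0.217), C2 (0.225), Krt42 (0.226) and Gpm6a (0.233), where the median over all genes was 1.15. Prss12 encodes the secreted protease neurotrypsin, Gjb5 a gap junction connexin of epithelia, C2 a component of complement, Krt42 a keratin, and Gpm6a a membrane glycoprotein that is also in the mesothelial list below. Prss12 was at -0.17, 0.13, -1.04 and -0.80 on RV1 to RV4, between -2.90 and -1.84 in the LV and between -2.98 and -2.58 in the Septum. Gjb5 was at -3.79 to -2.55 in the RV, -5.64 to -5.22 in the LV and -6.06 to -4.91 in the Septum. They were picked for this likeness, so their differences between regions have no test.

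Most mesothelial marker genes were higher in RV than in Septum. The list held 9 genes with a probe, Msln, Upk3b, Upk1b, Lrrn4, Wt1, Bnc1, Gpm6a, Tbx18 and Aldh1a2, all tested. With limma 7 of the 9 were called higher in RV than in Septum, against 1.2% of all probes. Of the 9 genes, 4 were well above background on all 10 arrays. A marker kept by the filter through RV alone had to lie higher there, so no count over the 9 is support for a difference. Between RV and LV 0 of the 9 were called, against 3.86% of all probes. In that contrast 7 had an unadjusted p below 0.05, as had 5992 of all 30234 probes. In the fit blocked by replicate number 4 of the 9 were called higher in RV than in LV. They were Upk3b (adjusted p = 0.043), Upk1b (0.029), Lrrn4 (0.044) and Gpm6a (0.011). Blocked by slide 6 were called, these 4 with Msln (0.028) and Bnc1 (0.019). These fits called 14.9% and 17.6% of all probes in either direction. Msln, mesothelin, was at 3.80, 3.75, 2.04 and 3.18 on RV1 to RV4, 1.99, 2.24 and 1.14 on LV1 to LV3, and 0.66, -0.50 and -2.46 on Septum1 to Septum3. RV was 3.96 (SE 0.69) above Septum with an adjusted p of 0.025 and 1.40 (SE 0.69) above LV with an adjusted p of 0.303. Upk3b and Upk1b, uroplakins, were 4.01 and 3.61 above Septum, and Lrrn4, not well above background on 2 of the 3 Septum arrays, was 4.29 above it. With normexp correction these differences were 2.62, 2.18 and 2.21, and the RV minus Septum difference of Bnc1 fell from 2.95 to 1.11. Wt1 (0.91) and Tbx18 (0.06), transcription factors of the epicardium, were not called between RV and Septum. Blocked by slide Wt1 was called (adjusted p = 0.031), and blocked by replicate number Tbx18 was at -0.002.

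The summed linear level of the 9 mesothelial genes was 9.41 to 24.4 in the RV, 6.21 to 9.47 in the LV and 3.12 to 4.65 in the Septum, in units of the 75th percentile of the array. That of the 10 epithelial genes was 4.11 to 9.10, 1.84 to 2.94 and 1.23 to 2.05. RV3 had the lowest sum of both lists in the RV, and its mesothelial sum (9.41) was within the LV range. The part of the mesothelium in the regional differences was not tested.

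**Figure D3:**
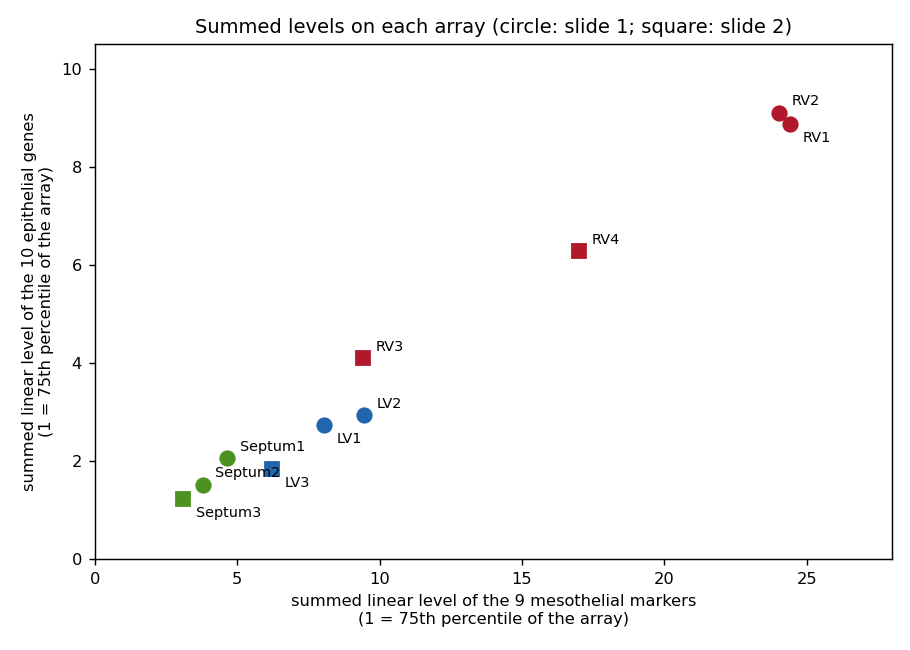
Summed linear level of the 10 epithelial genes (vertical axis) against that of the 9 mesothelial markers (horizontal axis) on each array, both in units of the 75th percentile of the array, with RV in red, LV in blue, Septum in green, circles for slide 1 and squares for slide 2. RV1, RV2 and RV4 lie highest on both axes, the Septum arrays lie lowest on the horizontal axis, and RV3 and LV2 have mesothelial sums of 9.41 and 9.47 with epithelial sums of 4.11 and 2.94.

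**Figure D4:**
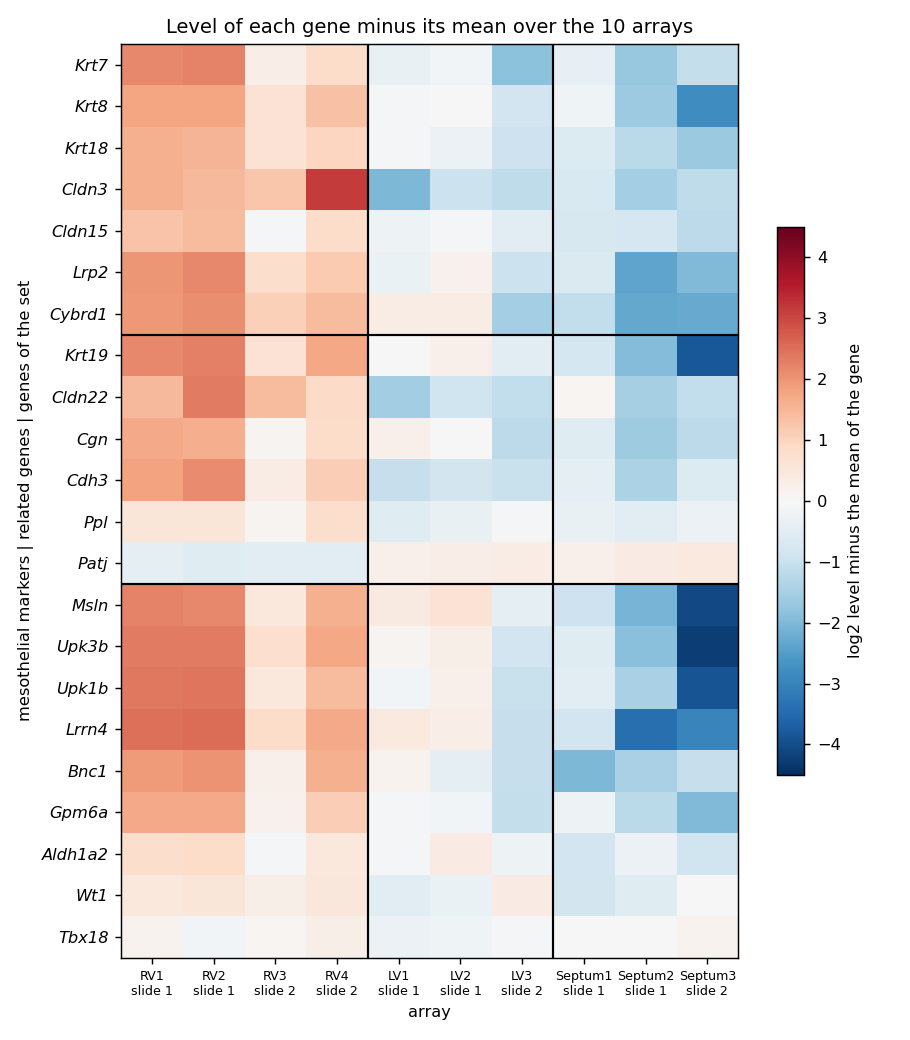
Level of each gene minus its mean over the 10 arrays (colour, log2) for the 7 tested genes of the set, 6 related genes and the 9 mesothelial markers (rows) on each array (columns, with its slide). The genes of the set are high on RV1, RV2 and RV4, Patj runs the other way, and Wt1 and Tbx18 vary little beside Msln, Upk3b and Lrrn4.

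Markers of other epithelia were detected in part. Of 10 lung and airway genes, Sftpc, Sftpa1, Sftpd, Foxj1 and Nkx2-1 were well above background on no array, Sftpb on 1, Napsa on 4, Scgb1a1 on 9, and Ager and Lamp3 on all 10. The summed level of the list was 8.60 to 9.71 in the RV, 9.85 to 10.9 in the LV and 9.73 to 11.1 in the Septum. Of 4 thymic epithelial genes, Prss16 was well above background on no array, Psmb11 on 1, Foxn1 on 5 and Ccl25 on all 10, and the sums were 0.787 to 1.01, 0.887 to 1.15 and 0.791 to 1.07. Only 3 of the lung and airway genes and 1 of the thymic genes were tested. None of these was called by limma in the RV contrasts, where 3.86% and 2.08% of all probes were.

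Some markers of adipocytes and fibroblasts were also higher in the RV. Over all probes, 2.31% were called higher in RV than in LV and 1.2% higher than in Septum. Of 7 adipocyte genes 5 were called higher in RV than in LV and 3 higher than in Septum. Their summed levels were 10.02 to 15.6 in the RV, 1.62 to 2.34 in the LV and 2.85 to 6.39 in the Septum. Of 6 fibroblast genes 3 were called higher in RV than in LV and 1 higher than in Septum, with sums of 316 to 333, 199 to 252 and 242 to 301. Lep, leptin, was the adipocyte gene with a lower mean in RV in both contrasts, at -0.15 and -0.07, and was not called. On the adipocyte sums RV3 (12.5) lay above RV2 (10.02), while on the epithelial set it was the lowest RV array. The part of these cell types in the differences of the set was not tested.

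Related genes of the same structures were listed by function, with earlier results of these arrays known. They comprised 16 keratins, 32 tight junction genes, 29 genes of adherens junctions and desmosomes, 23 genes of the apical membrane, endocytosis and iron uptake, and 17 regulators of epithelial identity, each with a probe. Of these, 75 genes were tested. Between RV and LV 8 (10.7%) were called by limma, 6 higher and 2 lower in RV, and between RV and Septum 9 (12%) were called, 7 higher and 2 lower. The shares over all tested probes were 3.86% and 2.08%. These shares count probes, while a gene is counted here by its brightest probe. Cldn22, Cgn and Cdh3 passed the filter through the RV arrays alone, so they had to lie higher there. Their calls and p-values are no support for a difference. Patj (5 probes, 3 tested), Cgnl1 (4 probes, 3 tested) and Heph (3 probes, 2 tested) had further tested probes, which are not described here. The medians of the 75 differences were -0.015 and -0.022, beside 1.88 and 2.95 in the set. The counts rise to 23 and 15 when blocked by replicate number and to 24 and 19 when blocked by slide, in fits whose shares over all probes also rise, to 14.9% and 7.12% by replicate number and 17.6% and 8.74% by slide. With median scaling the RV minus LV calls of Ezr, Heph, Ppl and Pkp2 and the RV minus Septum call of Ezr are lost. They fall as low as 3 without LV2 for RV minus LV, and 2 without RV1, without RV2 or without Septum2 for RV minus Septum. Leaving out any 1 array kept the RV minus LV calls of Cldn22, Cgnl1 and Patj and the RV minus Septum calls of Patj and Cubn, while every other related call was lost without some array. The RV minus LV and RV minus Septum differences of all 11 called related genes kept their sign on each slide.

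Among the other keratins, Krt19, a type I keratin of simple epithelia, was alone in being called. Its level was 0.97, 1.08, -0.54 and 0.56 on RV1 to RV4, -1.21, -0.98 and -1.70 on LV1 to LV3, and -1.97, -3.13 and -5.02 on Septum1 to Septum3, with no overlap between the regions. RV was 3.89 (SE 0.64) above Septum, limma adjusted p = 0.020, and 1.81 (SE 0.64) above LV, adjusted p = 0.157. Blocked by replicate number, the RV minus LV difference was 1.80 with an adjusted p of 0.044, and blocked by slide it was 2.03 with an adjusted p of 0.016. Of the 16 keratins 8 were tested and 5 were well above background on no array. Krt14, a keratin of basal cells, differed by 0.93 between RV and LV with an adjusted p of 0.18 (called when blocked by replicate number or slide), and Krt222 by -0.16 with an adjusted p of 0.53. The median difference of the tested keratins was 0.09 for RV minus LV and -0.03 for RV minus Septum.

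The tight junction list moved in both directions. Of 22 tested genes Cldn22 and Cgnl1 were higher and Patj lower in RV than in LV, and Cldn22, Cgn and Cgnl1 were higher and Patj lower in RV than in Septum. Cldn22, a claudin, was well above background on the 4 RV arrays (-3.12, -2.22, -3.15 and -3.72) and on no other array. RV was at least 1.63-fold higher than LV (limma adjusted p = 0.010) and at least 1.88-fold higher than Septum (adjusted p = 0.026). Because the filter kept Cldn22 through RV alone, these p-values are no support for a difference. Cgn, cingulin, which links tight junctions to the cytoskeleton, was well above background on 4 RV arrays, 1 LV array and no Septum array, and was at least 1.45-fold higher in RV than in Septum (adjusted p = 0.048). Its RV minus LV difference was 1.40 (adjusted p = 0.132), 1.48 (adjusted p = 0.038) when blocked by replicate number and 1.55 (adjusted p = 0.015) when blocked by slide. With normexp correction its RV minus Septum difference of 2.18 was 0.78 (adjusted p = 0.066). Cgnl1, its relative paracingulin, was high on every array, at 2.84 to 3.10 in the RV, 2.25 to 2.31 in the LV and 2.52 to 2.58 in the Septum, with all regions separate. RV was 0.70 (SE 0.08) above LV, adjusted p = 0.003, and 0.42 (SE 0.08) above Septum, adjusted p = 0.028.

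Patj, a scaffold of the Crumbs complex at the tight junction, was lower in the RV on its brightest probe, the only one described here. Its level was 0.22, 0.09, 0.15 and 0.13 on RV1 to RV4, 0.86, 0.94 and 0.97 on LV1 to LV3, and 0.83, 0.98 and 1.06 on Septum1 to Septum3. RV minus LV was -0.77 (SE 0.08, limma adjusted p = 0.003) and RV minus Septum was -0.81 (SE 0.08, adjusted p = 0.002). Ocln, occludin, singled out after its values were seen, was well above background on all 3 LV arrays (-4.07, -3.14 and -1.11), on 1 Septum array and on no RV array. The LV arrays spread widely, with LV3 the highest. RV minus LV had a limma adjusted p of 0.12, and Ocln was called when blocked by slide, as were 17.6% of all probes. The filter kept Ocln through LV alone, so this p-value and call are no support for a difference. Tjp1 and F11r, which are shared with endothelium and muscle, were well above background on all 10 arrays.

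Of 22 tested genes of adherens junctions and desmosomes, Cdh3 and Ppl were higher in RV than in LV and than in Septum. Cdh3 was well above background on the RV arrays alone, at -2.95, -2.62, -4.42 and -3.68. It was at least 1.27-fold higher than in LV (limma adjusted p = 0.016) and at least 1.46-fold higher than in Septum (adjusted p = 0.028). Because the filter kept Cdh3 through RV alone, these p-values are no support for a difference. Normexp correction took the RV minus LV differences of Cdh3 and Cldn22 from 2.32 and 2.71 to 0.78 and 0.86, and their RV minus Septum differences to 0.73 (adjusted p = 0.066) and 0.81 (adjusted p = 0.056). Ppl, periplakin, a linker of keratin filaments to desmosomes, was at 0.79, 0.78, 0.37 and 1.02 on RV1 to RV4, -0.29 to 0.16 in the LV and -0.25 to -0.03 in the Septum, and was 0.82 and 0.87 higher in RV (adjusted p = 0.024 and 0.028). Pkp2, plakophilin 2, a desmosomal protein of heart muscle, was lower in RV than in LV, with RV minus LV at -0.32 (SE 0.06, adjusted p = 0.028), and differed from Septum by -0.24 (adjusted p = 0.118, and 0.022 when blocked by slide). The desmosome and adherens genes of muscle Dsp, Jup, Dsg2, Cdh2 and Ctnnb1 were well above background on every array and none was called without a block, while Dsp, Cdh2 and Ctnnb1 were called between RV and LV when blocked by replicate number.

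Of the 17 tested apical and iron genes, Ezr and Heph were higher in RV than in LV. Ezr, ezrin, a linker of the apical membrane to actin, was at 2.81 to 2.86 in the RV, 2.43 to 2.54 in the LV and 2.37 to 2.50 in the Septum, and was 0.35 above LV (limma adjusted p = 0.025) and 0.38 above Septum (adjusted p = 0.027). Heph, hephaestin, a ferroxidase of iron export, was 0.56 above LV (adjusted p = 0.031) and 0.22 above Septum (adjusted p = 0.43). Cubn, cubilin, which acts with megalin, ran against Lrp2: it was -1.29 to -0.88 in the RV, -0.93 to -0.78 in the LV and -0.22 to 0.11 in the Septum. RV minus Septum was -0.98 (SE 0.12, adjusted p = 0.007), and RV minus LV was -0.24 (adjusted p = 0.33).

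Of the 17 regulators of epithelial identity 6 were tested and 0 were called by limma in either RV contrast. At an unadjusted p below 0.05 limma gave 1 gene between RV and LV and 0 between RV and Septum. The variance analysis with Tukey's HSD gave 1 and 0. Over all 30234 tested probes limma gave 5992 and 4249 at that threshold. Unadjusted, the variance analysis called 13.2% and 9.13% of all probes. The 1 gene between RV and LV was Spint1, a protease inhibitor of epithelial surfaces. Its RV minus LV difference was 0.55 with a limma adjusted p of 0.08, and it was called when blocked by replicate number or slide. It was well above background on 4 of 4 RV, 1 of 3 LV and 2 of 3 Septum arrays. The filter kept it through RV alone, so its p-values and calls are no support for a difference. Esrp1, an epithelial splicing factor, differed by -0.24 (adjusted p = 0.42) and Ovol2, a transcription factor of epithelia, by -0.19 (adjusted p = 0.51). Grhl3, Ovol1, Rab25 and Ap1m2 were well above background on no array. Between Septum and LV no related gene was called by limma. At an unadjusted p below 0.05 limma gave 5 related genes, and 862 of all 30234 probes. The variance analysis called 2, Cgnl1 and Cubn. It called 1.44% of all probes before adjustment over probes and 0.557% after it.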

How the data were processed

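RNA of 10 pieces of C57BL/6N mouse heart (4 RV, 3 LV, 3 Septum) was hybridised to SurePrint G3 Mouse 8X60K arrays. Per the file headers, the deposited scanner files hold spot intensity made by Agilent Feature Extraction 11.5.1.1, background-subtracted and detrended within each array, and flags of 0 or 1 for spots well above background, saturated or outlying, on an mm9 grid. The authors deposited a table of log2 values made in GeneSpring, which lay within 0.05 of the values here on 100% of probes after 1 constant per array. It was not centred by gene, and its scale and direction were found by this comparison.

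From the files, control and outlier spots were left out, replicate spots averaged, and log2 intensities set relative to the 75th percentile of their array. The filter kept 30234 of 56605 probes, those well above background throughout some region. Probes were named by RefSeq accession (GRCm38.p6), which matched 32994 probes (58.3%) and 22911 genes. The brightest probe stood for a gene. limma 3.58.1 in R 4.3.3 fitted 1 mean per region over all 10 arrays. All contrasts were two-sided, and an adjusted p below 0.05 over all probes was a call. A one-way variance analysis with Tukey's HSD, the test of the study, was run as an alternative. The fits were tested on simulated data. The number of arrays limits the precision.

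The genes of the set, the lists and the rule for naming genes were chosen with earlier results of these data known. The rule names the 10 genes, and of each related list the called genes, filled up to 3 by the largest RV minus LV differences, and the 5 genes most like the set. Replicate numbers come from the labels. Deviations from the region means correlated at 0.36 to 0.645 in all 9 pairs of arrays with the same number. They correlated at 0.0903 to 0.577 in the 8 other pairs on 1 slide and at -0.564 to -0.207 in the 16 pairs across slides. All same-number pairs also shared a slide, and RV4 correlated at 0.571 with LV3 and at 0.577 with Septum3. Pairing and slide therefore cannot be told apart. The replicate block is an alternative fit that takes the numbers to pair the arrays. RV4 has no partner and adds nothing to the fit with that block. The files have no mean signal, so normexp correction (offset 50) used the median signal. Nherf1 and Muc16 had no matched probe. A listed gene that is counted but not named is not reported here.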

Additional observations from a re-analysis of the deposited data

How the results depend on the processing

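The 3 counts for the set and the 3 for the related genes were recomputed under other scalings, background correction, filter, blocks, slides and tests, and without each array. For the set, the RV minus LV count of 2 became 5 with normexp correction, 1 with no filter, 7 with slide as a block, 4 on slide 2 alone, 7 with the replicate block and 6 with the variance analysis with Tukey's HSD before adjustment over probes, and ran from 1 to 3 when each array was left out. The RV minus Septum count of 6 became 2 with no filter, 2 with the adjusted variance analysis, and 7 with slide as a block, with the replicate block and with the unadjusted variance analysis, and ran from 0 (without Septum2) to 6 when each array was left out. For the related genes, the RV minus LV count of 8 became 5 with median scaling, 3 with no filter, 24 with slide as a block, 1 on slide 2 alone, 23 with the replicate block, and 14 before and 5 after adjustment of the variance analysis, and ran from 3 (without LV2) to 8. Their RV minus Septum count of 9 became 2 with no filter, 19 with slide as a block, 0 on slide 2 alone, 15 with the replicate block and 15 with the unadjusted variance analysis, and ran from 2 to 10 when each array was left out. The Septum minus LV count of 0 became 2 for the related genes with the variance analysis, before and after adjustment, and stayed 0 for the set under every setting run. Fewer calls with no filter come with 56605 probes tested, and slide 2 alone has 1 LV and 1 Septum array, whose spread is assumed to be that of the RV pair. The cause of the other changes was not tested. Over all probes the counts ran from 269 (no filter) to 5331 (slide as a block) for RV minus LV, from 112 (no filter) to 2754 (unadjusted variance analysis) for RV minus Septum and from 0 to 435 (unadjusted variance analysis) for Septum minus LV. Scaled by probes well above background on all arrays, RV minus LV calls split into 893 higher and 284 lower in RV, against 697 and 470, and with median scaling RV minus Septum calls split into 341 and 126, against 364 and 264. None of the 14 RV differences of the set changed sign under any setting run. Normexp correction shrank 4 of them for RV minus LV by over 1.5 times: Krt7 to 1.197, Cldn3 to 1.19, Lrp2 to 0.93 and Cybrd1 to 1.05, genes whose dim side was near background. It shrank 4 for RV minus Septum likewise, Krt7 to 1.26, Cldn3 to 1.05, Lrp2 to 1.46 and Cybrd1 to 1.54.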
